A study of Mus musculus with 8 samples.

Results

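The genes described here belong to the signalling pathways of the bone morphogenetic proteins (BMPs) and of the TGF-beta family, namely their ligands, secreted antagonists, receptors, Smad proteins, target genes and ubiquitin ligases. The set holds 37 genes named by a list, and their probes were found by the gene names in the array files, which gave 58 probes of 41174 on the array. After the filter on dim signals 36 of the 37 were measured, among 17099 genes tested. Total RNA of whole mouse embryos of embryonic day 9.0 was measured on 1-colour Agilent arrays, in 4 pools of Arid3b-null embryos and 4 pools of wild-type embryos, with 3 to 4 embryos in each pool. The labels give the genotype as Arid3b-null or wild type and name no strain or allele. The ARID3B protein binds AT-rich DNA through a domain shared by its family. The comparison asks how transcript levels differ in embryos that lack it. In whole embryos, fewer cells of a type and less RNA per cell cannot be told apart. The labels do not say whether the pools came from separate litters, so the p-values cover only the spread among the pools, which may be technical.

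BMPs and the other ligands of this family bind pairs of type I and type II serine/threonine kinase receptors at the cell surface. The receptors phosphorylate Smad1, Smad5 and Smad9 for BMPs, or Smad2 and Smad3 for TGF-beta, activin and Nodal, and these enter the nucleus with Smad4. Secreted proteins such as noggin and gremlin bind the ligands outside the cell, and inhibitory Smads and Smurf ligases limit the signal within it. In the embryo at this age the pathways are known for their part in left-right asymmetry, in the outflow tract and cushions of the heart, in the limb bud and in the dorsal neural tube. The Id genes are well-known direct targets of BMP signalling.

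Each array had 59.9% to 64.1% of its probes well above background, with a 75th percentile of signal of 1280 to 1703. Pools 1 and 2 of each group lay on slide 1 and pools 3 and 4 on slide 2, with the null pools at positions 3 and 4 and the wild-type pools at positions 1 and 2 of each slide, and these positions and the genotypes cannot be told apart. All values below are log2 signals set against the 75th percentile of each array, and each difference, null minus wild type, stands with its limma standard error (n = 4 pools each unless stated). Arid3b itself was lower in every null pool, at 1.89, 1.83, 1.85 and 2.48 in null pools 1 to 4, against 3.47, 3.29, 3.39 and 3.31 in wild-type pools 1 to 4 (-1.35 ± 0.15, limma adjusted p = 0.00577). Null pool 4 kept the highest Arid3b signal of the null pools. Whether this probe lies in the deleted part of the gene was not given in the sources used here. The summed signal of 6 heart muscle markers was 8.01 to 8.17 in the null pools and 7.70 to 7.81 in the wild-type pools, and that of 6 neural tube markers was 2.90 to 3.35 in the null pools and 3.48 to 3.56 in the wild-type pools. Nppa was called higher, and Olig2 and Sox3 lower. The sums of the endothelial markers overlapped, at 3.34 to 3.58 in the null pools and 3.34 to 3.52 in the wild-type pools, as did those of the somite, primitive erythroid, yolk sac, trophoblast and blood lists. Of these lists, the erythroid regulator Klf1 alone was called, lower in null. Myf5, Tpbpa, Psg17, S100a8 and S100a9 were well above background on no array. The part of these differences in the results below was not tested.

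With genotype as the only term, no member passed the test at an adjusted p under 0.05 in either direction, with 0 of 36 called higher and 0 of 36 called lower. Fits with a block, given below, called some members. Over all genes tested 4.2% were called (2.85% higher and 1.35% lower in null). At an unadjusted p under 0.05 there were 7 members of 36 (19.4%), against 20.7% of all genes. The groups did not overlap for 6 members (16.7%), 5 of them higher and 1 lower in null, against 16.1% of all genes. The members' differences were small, with 27 of 36 (75%) under 0.2 in size, against 63.3% of all genes, and a range of -0.35 to 0.61. The 95% interval of the difference lay within 1 in size for 35 members and within 0.5 for 25, so that larger differences are outside the interval for these genes. Inhbb was the member whose interval was wider.

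The mean was higher in null for 27 members and lower for 9, with a median difference of 0.08 over the members and of -0.01 over all genes. A shift of each array moves all genes alike, while quantile normalization can move them unequally. The members' share with a higher mean in null moved with that of all genes. It was 75% of members and 48.7% of all genes as scaled here, 44.4% and 33.4% with each array's median subtracted, 58.3% and 36.6% with no shift, and 69.4% and 47.1% with quantile normalization. The median difference was 0.10 on slide 1 and 0.08 on slide 2. With the replicate number as a block, 4 members were called, all higher in null, which were Ctgf, Smad7, Bmp7 and Grem1. In that fit 13.7% of all genes were called (7.78% higher and 5.92% lower). With slide as a block, Ctgf and Grem1 were called, against 8.01% of all genes. Within the same-numbered pairs, 15 of 35 members with all pairs measured were higher in null in 4 of 4 pairs and 2 were lower in 4 of 4, which were Bmp1 and Id4. Over all genes 22.5% were higher and 24.2% lower in all 4 pairs.

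**Figure D1:**
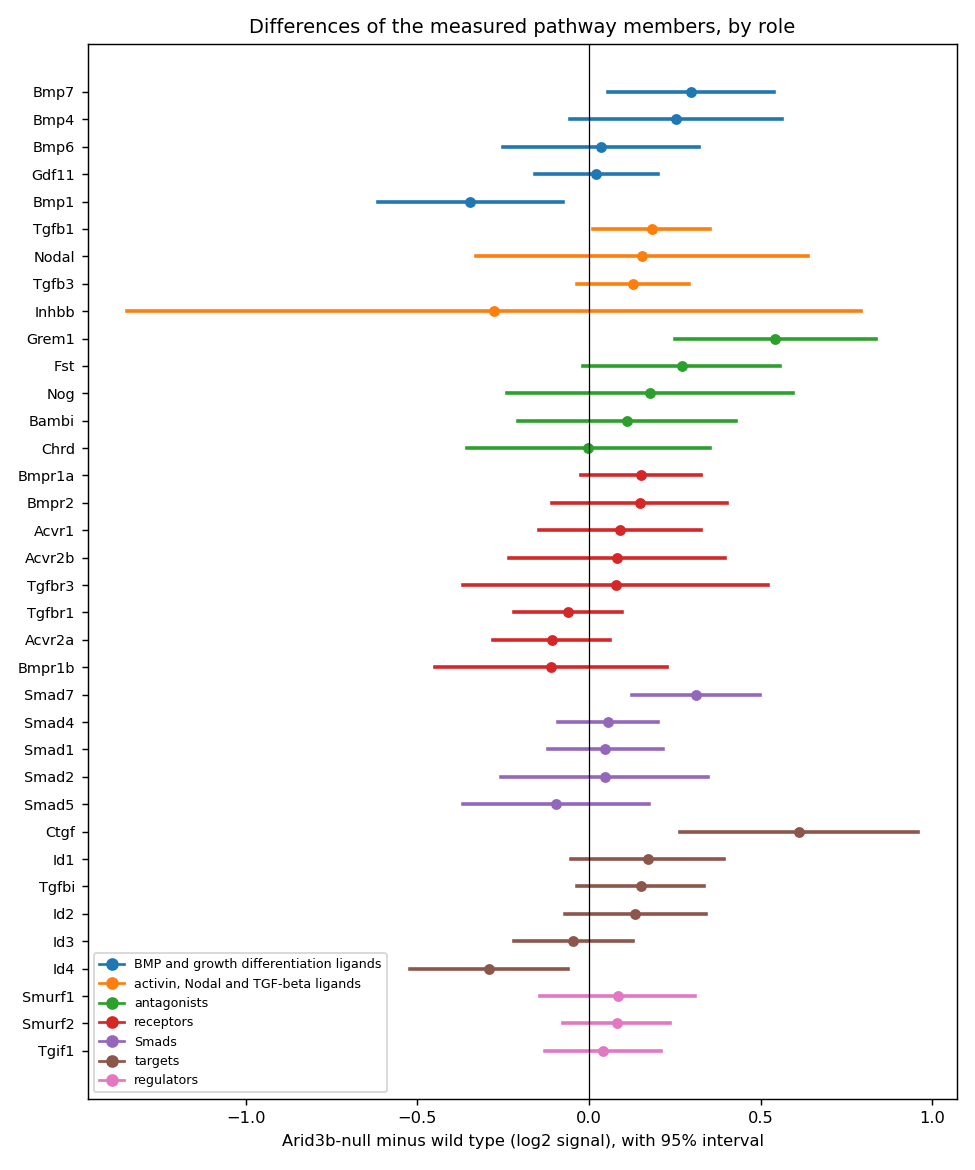
Difference of each of the 36 measured members, Arid3b-null minus wild type (x axis, log2 signal), with the 95% interval of the limma fit as a line, grouped by role (colours). The points lie between -0.35 and 0.61, and 27 of 36 lie within 0.2 of zero.

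Among the BMP and growth differentiation ligands, the smallest p belonged to Bmp1, which despite its name encodes a secreted metalloproteinase that cleaves procollagens and the antagonist chordin. Its signal was 0.82, 0.35, 0.50 and 0.46 in null pools 1 to 4, against 0.96, 0.85, 0.99 and 0.71 in wild-type pools 1 to 4, on a probe at chr14:65119229-65119288 (mm7). Null pools 2 to 4 lay below every wild-type pool, while null pool 1 lay among them. The difference was -0.35 ± 0.12 (limma adjusted p = 0.143, 0.0528 with replicate number blocked). A second Bmp1 probe gave -0.04 ± 0.24, a standard error too wide to tell whether the probes share a sign or a size.

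Bmp7, a ligand expressed widely in the early embryo including the heart and limb bud, lay at 2.66, 2.94, 2.70 and 2.77 in null pools 1 to 4, against 2.36, 2.61, 2.30 and 2.60 in wild-type pools 1 to 4. The groups did not overlap, and the lowest null pool lay just above the highest wild-type pool. The difference was 0.30 ± 0.11, or 1.23-fold (chr2:172614090-172614149, mm7; limma adjusted p = 0.159, 0.0379 with replicate number blocked). It was 0.31 on slide 1 and 0.28 on slide 2, and a second Bmp7 probe gave 0.26 ± 0.10.

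Bmp4, a ligand of dorsal and ventral patterning and of the limb and heart, lay at 1.12, 1.28, 0.85 and 0.70 in null pools 1 to 4, against 0.75, 0.87, 0.67 and 0.65 in wild-type pools 1 to 4. The high values were those of null pools 1 and 2, and null pools 3 and 4 lay within the wild-type range. The difference was 0.25 ± 0.13 (limma adjusted p = 0.340), with 0.40 on slide 1 and 0.11 on slide 2. Bmp6 differed by 0.03 ± 0.12, and Gdf11, a ligand of axial patterning, by 0.02 ± 0.08.

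Tgfb1 had the smallest p of the activin, Nodal and TGF-beta ligands. Its signal was -1.91, -1.84, -1.85 and -1.91 in null pools 1 to 4, against -1.97, -2.14, -1.97 and -2.16 in wild-type pools 1 to 4. The groups did not overlap, with a narrow gap between null pools 1 and 4 and wild-type pools 1 and 3. The difference was 0.18 ± 0.07 (chr7:22478890-22478949, mm7; limma adjusted p = 0.212), and -0.02 under normexp background correction. Tgfb3, a relative active in palate and heart cushions, differed by 0.13 ± 0.07, with overlapping groups.

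Nodal, the ligand of left-right asymmetry, differed by 0.15 ± 0.21, and Inhbb, a subunit of activin B and inhibin B, by -0.28 ± 0.46, with a 95% interval of -1.35 to 0.79. Both were dim, and Inhbb was well above background in 3 of 4 null pools and 4 of 4 wild-type pools. A second Inhbb probe gave 0.20 ± 0.23, of opposite sign. Inhba, a subunit of activin A, was well above background in 2 of 4 null pools and 1 of 4 wild-type pools and was not tested.

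**Figure D2:**
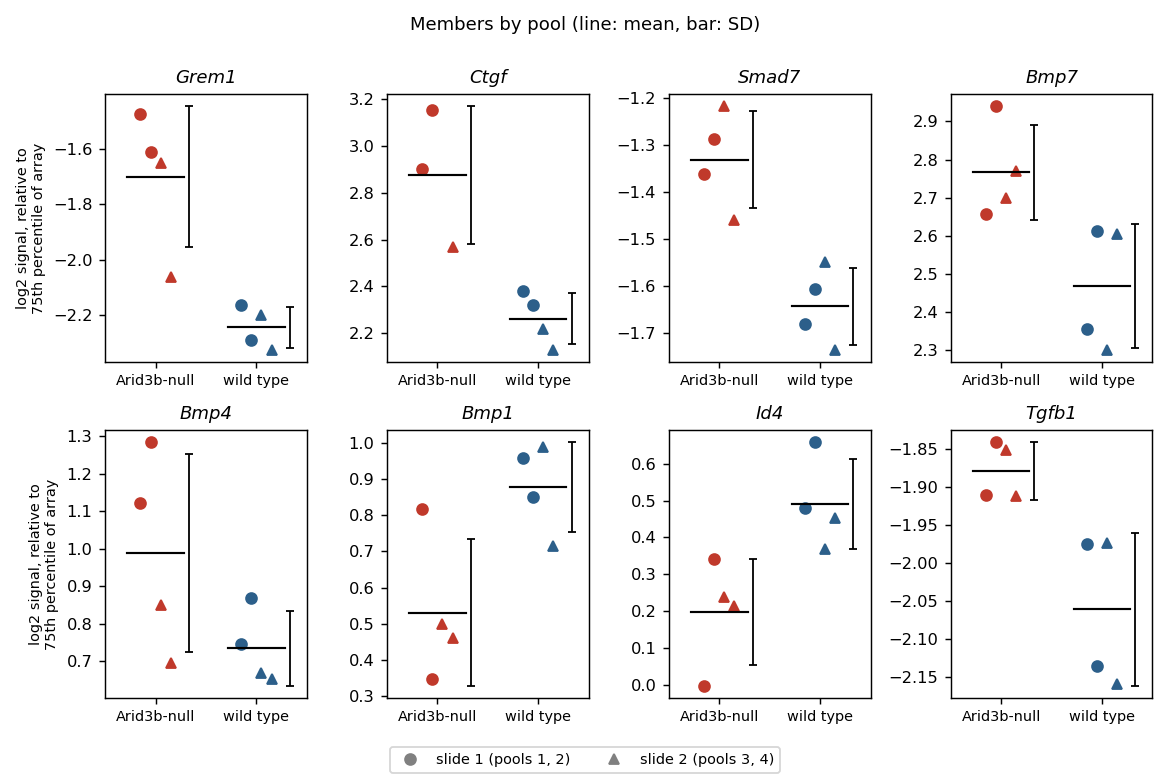
Log2 signal relative to the 75th percentile of the array (y axis, with its own range for each gene) in the Arid3b-null and wild-type pools, with pools of slide 1 as circles and of slide 2 as triangles, the mean as a line and the SD as a bar. Null pool 3 has no value for Ctgf. Groups are apart for Grem1, Ctgf, Smad7, Bmp7, Id4 and Tgfb1 and overlap for Bmp4 and Bmp1.

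Among the antagonists Grem1 had the smallest p. It encodes gremlin 1, a secreted protein that binds BMP2, BMP4 and BMP7 and is best known from the limb bud. Its signal was -1.47, -1.61, -1.65 and -2.06 in null pools 1 to 4, against -2.16, -2.29, -2.20 and -2.32 in wild-type pools 1 to 4. All null pools lay above all wild-type pools, and null pool 4 lay closest to them. The difference was 0.54 ± 0.13, or 1.46-fold, on a probe at chr2:113599308-113599367 (mm7), with 0.68 on slide 1 and 0.40 on slide 2. It did not pass the test on all pools (limma adjusted p = 0.0557). It passed with the replicate number as a block (0.0283), with slide as a block (0.0345) and without null pool 4 (0.66, adjusted p = 0.0138). It did not pass without any 1 of the other 7 pools (adjusted p = 0.106 to 0.151) or under another scaling (0.45 to 0.50, adjusted p = 0.0783 to 0.230), and under normexp background correction the difference was 0.27 (adjusted p = 0.996). Normexp called no gene at all, not even Arid3b (limma adjusted p = 0.216). A missing call under it, here and below, therefore does not set a gene apart.

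The other antagonists had overlapping groups. Fst, encoding follistatin, which binds activins, lay at 0.26, 0.85, 0.44 and 0.42 in null pools 1 to 4, against 0.28, 0.21, 0.16 and 0.23 in wild-type pools 1 to 4 (0.27 ± 0.12, limma adjusted p = 0.272). Null pool 1 alone lay within the wild-type range. Nog, encoding noggin, a binder of BMPs, differed by 0.18 ± 0.18 and Bambi, a membrane pseudoreceptor, by 0.11 ± 0.14. Chrd, encoding chordin, which Bmp1 cleaves, differed by -0.00 ± 0.15, with a 95% interval of -0.36 to 0.35.

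Receptors differed little. All 8 had a difference under 0.2 in size, between -0.11 and 0.15, and the 95% interval lay within 0.5 for 7 of them. Bmpr1a, a type I receptor for BMPs, had the smallest p, with 1.70, 1.68, 1.90 and 1.82 in null pools 1 to 4, against 1.61, 1.58, 1.69 and 1.60 in wild-type pools 1 to 4. Null pools 1, 3 and 4 lay above every wild-type pool, while null pool 2 lay just under wild-type pool 3. The difference was 0.15 ± 0.08 (chr14:31844499-31844558, mm7; limma adjusted p = 0.308), and a second probe gave 0.03 ± 0.10.

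Bmpr2, the type II receptor of BMPs, differed by 0.15 ± 0.11, and its other probes gave 0.05 and 0.34 (limma adjusted p = 0.893 and 0.160 over probes). The activin type II receptor genes Acvr2a and Acvr2b differed by -0.11 ± 0.07 and 0.08 ± 0.14, and a second Acvr2a probe gave 0.18 ± 0.11, of opposite sign. Acvr1 and Bmpr1b, further type I receptors, differed by 0.09 ± 0.10 and -0.11 ± 0.15. Tgfbr1, the type I receptor of TGF-beta, differed by -0.06 ± 0.07 and the coreceptor gene Tgfbr3 by 0.08 ± 0.19.

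Of the 5 Smads, Smad7 had the smallest p. It encodes an inhibitory Smad that blocks receptors and recruits Smurf ligases, and is itself induced by the pathway. Its signal was -1.36, -1.29, -1.22 and -1.46 in null pools 1 to 4, against -1.68, -1.61, -1.55 and -1.73 in wild-type pools 1 to 4. The groups did not overlap, and each null pool lay above the wild-type pool of its number by a like amount, with 0.32 on slide 1 and 0.30 on slide 2. The difference was 0.31 ± 0.08, or 1.24-fold (limma adjusted p = 0.0735, 0.0250 with replicate number blocked). Without a block it was 0.22 with the median subtracted, 0.24 with no shift and 0.29 with quantile normalization (limma adjusted p = 0.347, 0.424 and 0.0906). Under normexp background correction, which called no gene, it was 0.19 (adjusted p = 0.996). The Smads that carry the signal differed little, with 0.05 ± 0.07 for Smad1 and -0.10 ± 0.12 for Smad5 on the BMP side, 0.05 ± 0.13 for Smad2 on the TGF-beta side and 0.06 ± 0.06 for the shared Smad4. Second probes of Smad1 and Smad4 gave -0.01 and -0.14, of opposite sign to the first.

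**Figure D3:**
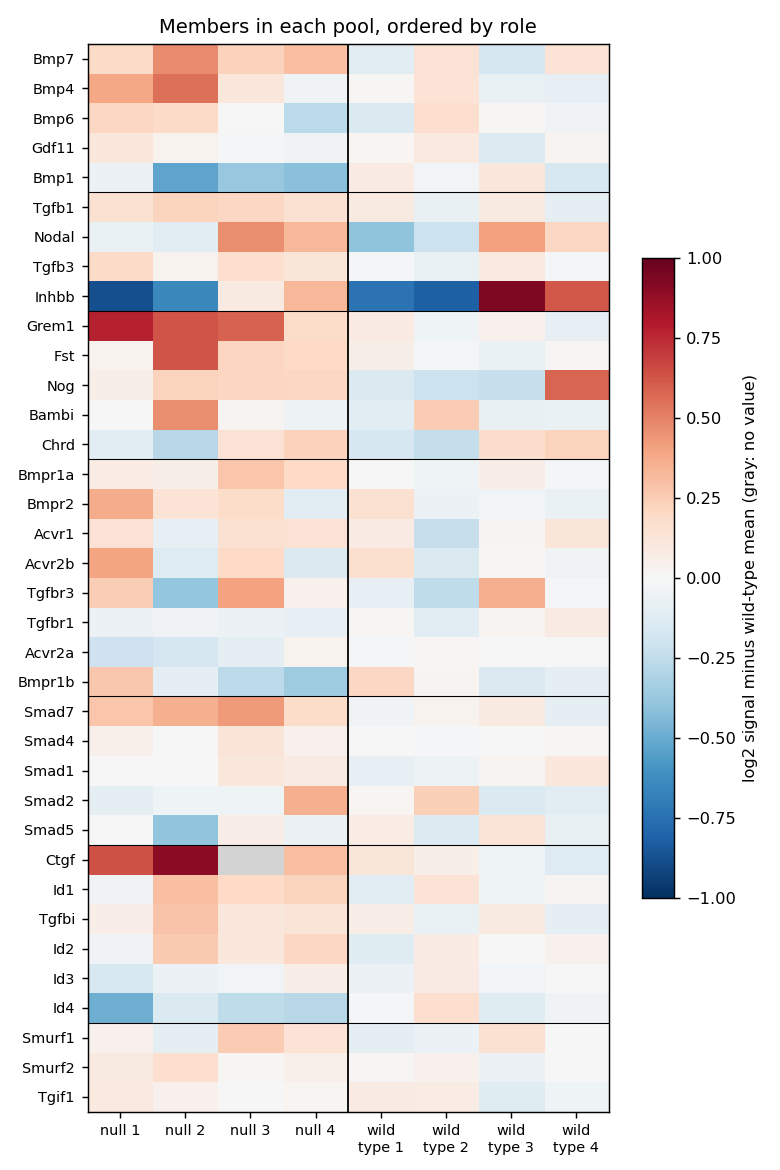
Log2 signal of each of the 36 measured members (rows, in the order of their roles) in each pool (columns, Arid3b-null left of the line and wild type right of it), minus the wild-type mean of that gene, in red where higher and blue where lower. The Smad7, Grem1 and Ctgf rows are red in every null pool with a value, the Id4 row is blue, and the Inhbb row is blue on slide 1 in both genotypes.

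The 6 targets gave the largest difference of any member, that of Ctgf, also named Ccn2, which encodes a matricellular protein induced by TGF-beta. Its signal was 2.90, 3.15 and 2.57 in null pools 1, 2 and 4, against 2.38, 2.32, 2.22 and 2.13 in wild-type pools 1 to 4, and null pool 3 had no value because its spot was marked as an outlier. All 3 null pools lay above all wild-type pools, with null pool 4 the nearest. The difference was 0.61 ± 0.15, or 1.53-fold (n = 3 null and 4 wild type; chr10:24349402-24349461, mm7). It did not pass the test (limma adjusted p = 0.0687). It passed with the replicate number as a block (0.60, adjusted p = 0.0389), a fit that drops the unmatched wild-type pool 3, with slide as a block (adjusted p = 0.0305) and without null pool 4 (0.77, adjusted p = 0.0346, with 2 null values left). It did not pass without any 1 of the other pools that had a value (limma adjusted p = 0.117 to 0.171), and it was 0.68 on slide 1 and 0.39 on slide 2. Leaving out null pool 3, which had no Ctgf value, kept the difference at 0.61. The limma adjusted p of 0.114 in that fit changed through the other genes alone. Tgfbi, another TGF-beta target of the matrix, differed by 0.15 ± 0.08 (adjusted p = 0.345).

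The Id genes encode helix-loop-helix proteins without a DNA-binding region, which hold back differentiation by binding other such factors. They did not share a direction, with higher means in null for Id1 and Id2 and lower means for Id3 and Id4. Id4 lay at -0.00, 0.34, 0.24 and 0.21 in null pools 1 to 4, against 0.48, 0.66, 0.37 and 0.45 in wild-type pools 1 to 4. The groups did not overlap, and null pool 1 was the lowest. The difference was -0.29 ± 0.10, and a second probe gave -0.32 ± 0.11 (chr13:47746118-47746177 and chr13:47746630-47746689, mm7; limma adjusted p = 0.146 for the first). On the first probe it was -0.40 on slide 1 and -0.18 on slide 2. The summed neural tube markers, also lower in null, are given above, and their part in this difference was not tested.

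Id1 lay at 3.48, 3.83, 3.72 and 3.74 in null pools 1 to 4, against 3.41, 3.66, 3.48 and 3.55 in wild-type pools 1 to 4 (0.17 ± 0.10, limma adjusted p = 0.377). Id2 lay at 3.97, 4.27, 4.11 and 4.22 in null pools 1 to 4, against 3.89, 4.09, 4.00 and 4.05 in wild-type pools 1 to 4 (0.14 ± 0.09, limma adjusted p = 0.458). Id3 lay at 3.66, 3.76, 3.80 and 3.89 in null pools 1 to 4, against 3.76, 3.91, 3.80 and 3.83 in wild-type pools 1 to 4 (-0.05 ± 0.08, limma adjusted p = 0.809). Null and wild-type pools overlapped for these 3 genes. The null pool was above the wild-type pool of its number in every pair for Id1 and Id2. The sign of the Id3 difference turned under quantile normalization, under normexp background correction and on slide 2 alone.

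Promoters of the Id genes found in the RefSeq table and of Grem1 are shown because the Id genes, all known as BMP targets, did not share a direction and Grem1 had the smallest p of all members. Each is the 250 bases before the gene start (GRCm38.p6, 5′ to 3′ on the strand of the gene), with matches to GGCGCC, a GC-rich element bound by Smad1 and Smad5, in capitals. Grem1 is at chr2:113758649-113758898 on the minus strand, Id2 at chr12:25096093-25096342 on the minus strand, Id3 at chr4:136143572-136143821 on the plus strand and Id4 at chr13:48260866-48261115 on the plus strand.
Grem1: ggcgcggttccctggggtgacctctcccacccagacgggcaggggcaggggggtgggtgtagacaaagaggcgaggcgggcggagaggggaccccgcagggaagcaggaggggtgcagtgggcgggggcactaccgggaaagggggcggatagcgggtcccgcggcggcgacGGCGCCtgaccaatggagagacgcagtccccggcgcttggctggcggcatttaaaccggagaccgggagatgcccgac
Id2: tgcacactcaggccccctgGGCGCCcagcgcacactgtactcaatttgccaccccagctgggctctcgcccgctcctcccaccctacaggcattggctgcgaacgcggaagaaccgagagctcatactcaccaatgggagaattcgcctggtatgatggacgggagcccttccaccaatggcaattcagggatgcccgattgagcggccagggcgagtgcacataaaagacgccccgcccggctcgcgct
Id3: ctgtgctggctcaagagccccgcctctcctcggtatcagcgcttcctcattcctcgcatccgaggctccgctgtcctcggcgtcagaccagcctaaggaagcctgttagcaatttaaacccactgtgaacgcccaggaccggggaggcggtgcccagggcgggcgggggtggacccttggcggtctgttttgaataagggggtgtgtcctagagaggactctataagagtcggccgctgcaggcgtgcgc
Id4: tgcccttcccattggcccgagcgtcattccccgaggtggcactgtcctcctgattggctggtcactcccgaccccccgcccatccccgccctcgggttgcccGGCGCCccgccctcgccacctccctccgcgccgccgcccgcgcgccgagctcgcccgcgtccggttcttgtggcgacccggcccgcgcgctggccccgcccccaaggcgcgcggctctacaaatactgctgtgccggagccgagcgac
Grem1, Id2 and Id4 each hold 1 match, although the Id2 mean was higher and the Id4 mean lower in null, and Id3 holds none. Of the 37 members 25 had a promoter in the table, in windows from 250 bases before to 50 after the start. GGCGCC, searched on both strands, was in 10 of these 25 (40.0%), against 12.0% of all 27025 promoters. The members' promoters were also richer in G and C, with a median of 68.8% in the 250 bases, against 52.0% of all promoters. CAGACA, the core of the box bound by Smad3 and Smad4, was in 5 (20.0%), against 21.0% of all. The hypoxia element core ACGTG was in 3 (12.0%), against 19.7% of all, and the E-box CACGTG, which contains it, in 2 (8.0%), against 7.24% of all. A match describes letters and not a bound site.

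The ubiquitin ligases Smurf1 and Smurf2, which mark Smads and receptors for breakdown, and the corepressor gene Tgif1 differed little on the probe that stands for each. Smurf2 lay at 0.63, 0.71, 0.55 and 0.58 in null pools 1 to 4, against 0.55, 0.58, 0.48 and 0.54 in wild-type pools 1 to 4. The groups overlapped, and the difference was 0.08 ± 0.07 (limma adjusted p = 0.570). Its other probes gave 0.04 and -0.08, of mixed sign. Smurf1 differed by 0.08 ± 0.10 (limma adjusted p = 0.709) and Tgif1 by 0.04 ± 0.07.

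A second Smurf1 probe behaved otherwise and was the single member probe of 55 that was called when all 25555 kept probes were fitted (884 called). Its signal was -2.37, -2.58, -2.73 and -2.38 in null pools 1 to 4, against -3.11, -3.04, -2.87 and -3.03 in wild-type pools 1 to 4. Every null pool lay above every wild-type pool. The difference was 0.50 ± 0.10 (limma adjusted p = 0.0453 over probes), with 0.60 on slide 1 and 0.40 on slide 2. The call was lost without any 1 of the 8 pools, at adjusted p of 0.0634 to 0.133. The mean of both probes gave 0.29 (limma adjusted p = 0.101).
Smurf1: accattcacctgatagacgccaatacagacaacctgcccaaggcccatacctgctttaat
The probe is shown because its 60 bases span 1228 bases of the genome, chr5:143908090-143909317 on the minus strand (mm7), so that it crosses an intron. The probe that stands for the gene lies at chr5:143905230-143905289 (mm7), on one uninterrupted stretch. The probes are annotated to different RefSeq transcript records of the gene, and whether they read different transcripts was not tested.

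For 8 members with a value on all arrays and a difference over 0.2 in size, each null pool's shift from the wild-type mean was taken along the difference. A null pool on the far side of that mean counted as having the smallest shift, so this is not a distance. For Inhbb, null pool 4 at -4.45 was counted, while null pool 3 at -4.69 lay closer to the wild-type mean of -4.78. Null pool 4 had the smallest shift in 4 of the 8, Inhbb among them. Null pools 1 and 2 had the smallest shift in 3 and in 1 of these 8, and null pool 3 in none. Over all 35 members with a value on all arrays, null pool 4 had the smallest shift by this count in 13. Null pool 1 had it in 10, null pool 2 in 9 and null pool 3 in 3. The shares over all genes were not counted, and the 8 were picked by their differences in these same pools. Nothing is read from these counts.

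Differences between the slides were not more frequent among the members than among all genes. With genotype in the fit, 3 of 36 members (8.33%) differed between the slides, all higher on slide 2, against 12.4% of all genes (9.97% higher on slide 2). The slide difference was larger in size than the genotype difference for 17 of 36. The share over all genes was not counted, so nothing is read from this number. Inhbb differed by 1.26 ± 0.15 between slide 2 and slide 1, Nodal by 0.55 ± 0.08 and Chrd by 0.39 ± 0.06 (SE, log2; limma adjusted p = 0.00147, 0.00447 and 0.00742). Nodal lay at -3.03, -3.08, -2.50 and -2.63 in null pools 1 to 4, against -3.37, -3.18, -2.55 and -2.76 in wild-type pools 1 to 4. In both genotypes pools 3 and 4 were the high ones. This comparison was chosen after the values were seen, and since pools and slides coincide, slide and pool origin cannot be told apart.

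**Figure D4:**
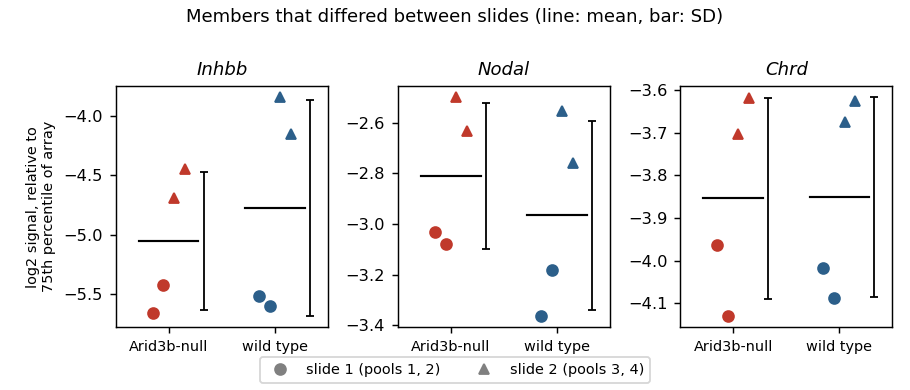
Log2 signal relative to the 75th percentile of the array (y axis, with its own range for each gene) of Inhbb, Nodal and Chrd in the Arid3b-null and wild-type pools, with pools of slide 1 as circles and of slide 2 as triangles, the mean as a line and the SD as a bar. In both genotypes the triangles lie above the circles for all 3 genes.

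A further 101 genes of the same pathways were listed, of which 88 were measured. Of these 2 rose and 0 fell, which is 2.27%, against 4.2% of all genes. The median difference was 0.06, and 18 (20.5%) had an unadjusted p under 0.05 in limma, against 20.7% of all genes. Of these 18, 2 passed the filter on dim signals through 1 group alone. Acvrl1, an endothelial type I receptor also called ALK1, rose 1.89-fold. Its signal was -2.23, -1.98, -2.61 and -2.90 in null pools 1 to 4, against -3.16, -3.35, -3.36 and -3.54 in wild-type pools 1 to 4 (0.92 ± 0.20, chr15:101122328-101122620, mm7; limma adjusted p = 0.0432). The groups did not overlap. Of the 5 endothelial markers, which were well above background on all arrays, none was called. The part of endothelial cells in the Acvrl1 difference was not tested. The call held without null pool 4 (adjusted p = 0.0226) and was lost without any 1 of the other 7 pools, with differences of 0.77 to 0.99 and adjusted p of 0.0653 to 0.123. It was also lost under every other scaling (adjusted p = 0.0752 to 0.121), without the filter on dim probes (0.104), with the deposited value table (0.0555) and under normexp background correction, where the difference was 0.43 (adjusted p = 0.996).

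Snai2, a zinc finger repressor of neural crest and of epithelial to mesenchymal transition, rose 1.35-fold. Its signal was 2.33, 2.54, 2.48 and 2.54 in null pools 1 to 4, against 2.03, 2.07, 2.17 and 1.90 in wild-type pools 1 to 4, with a clear gap between the groups (0.43 ± 0.09, chr16:14250104-14250163, mm7; limma adjusted p = 0.0377). The call held without null pool 1 (adjusted p = 0.0462) and was lost without any 1 of the other 7 pools, at adjusted p of 0.0660 to 0.111. It was also lost with the median subtracted (0.184), with no shift (0.261), without the filter on dim probes (0.0976) and under normexp background correction (0.950).

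Of the 16 other ligands measured, Mstn, encoding myostatin, and Lefty1, an inhibitor of Nodal, were well above background in 0 of 4 null pools and 4 of 4 wild-type pools. They passed the filter on dim signals through the wild-type pools alone, so no p is given for them and nothing is read from their counts among the genes above. The null level of Mstn was set on each array to the dimmest signal still well above background, or to the probe's own where that was higher. Against this level the wild-type signal was 1.29-fold higher. The detection limit of the Mstn probe may lie above that dimmest signal, so this is not a firm lower bound. Among 23 other antagonists and extracellular regulators the smallest p was that of Ltbp3, which holds latent TGF-beta in the matrix, at 0.62 ± 0.15 on its brightest probe (limma adjusted p = 0.0550, 0.0173 with replicate number blocked). Its 2 probes differed, since their mean gave 0.23 (adjusted p = 0.472), and under normexp the brightest gave 0.40 (adjusted p = 0.996). Among 15 nuclear and cytoplasmic regulators it was that of Map3k7, the kinase TAK1, at -0.28 ± 0.09 (adjusted p = 0.125), with -0.41 on slide 1 and -0.16 on slide 2. With the replicate number as a block 7 of the 88 were called higher in null (7.95%, against 7.78% of all genes), which were Skil, Ltbp1, Ltbp3, Ltbp4, Sostdc1, Snai2 and Acvrl1.

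**Figure D5:**
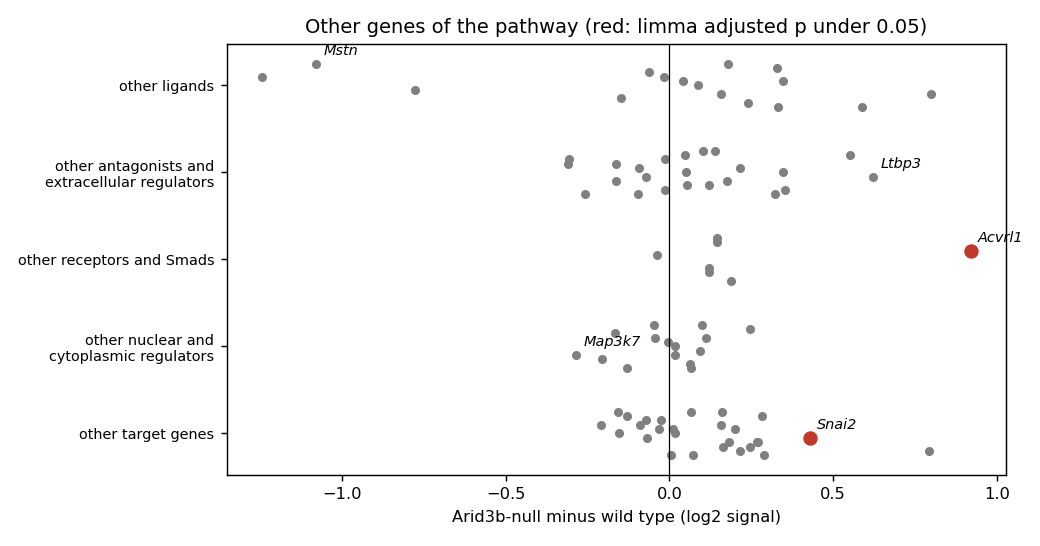
Difference of each of the 88 measured other pathway genes, Arid3b-null minus wild type (x axis, log2 signal), in 5 lists (y axis), with called genes in red and the gene with the smallest p of each list named. Mstn was well above background in the wild-type pools alone. Acvrl1 and Snai2 are the red points, and both lie right of zero.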

How the data were processed

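Total RNA of 8 pools was measured on 1-colour Agilent arrays of 45018 spots, 1639 of them controls. Per the file headers, Feature Extraction 9.5.3.1 made the processed intensity of each spot by subtracting a fitted background and detrending within the array, with no scaling between arrays. The deposited mean and background intensities served the normexp alternative (offset 50). The deposited value table holds log2 values of 27108 probes, with column medians of 9.44 to 9.47. Its columns correlated at 0.988 to 0.990 with the log2 intensity, and its centring and background correction are not given in the sources used here.

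Control spots and the 87 to 175 outlier spots per array were left out, spots of a probe were averaged, and the 75th percentile of each array was subtracted. A probe was kept where it was well above background on 4 or more of the 8 arrays and had at least 2 values per group. The brightest stood for each gene, under names updated through a RefSeq table (GRCm38.p6). Of the 37 members 36 matched by the name in the files and Tgif1 by its updated name. Probe coordinates are on mm7, as in the files, and promoter sequences are from RefSeq (GRCm38.p6).

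The test was limma 3.58.1 under R 4.3.3 (lmFit and eBayes, genotype as the only term, two-sided, Benjamini-Hochberg over all 17099 genes, called at an adjusted p under 0.05). Of all genes 718 were called. The 8 arrays limit the precision. Folds are ratios of geometric means. Same-numbered pools deviated from their group means together (correlations over genes of 0.557 for number 1, 0.635 for 2, 0.523 for 3 and 0.426 for 4), which by the rule used makes them pairs. Each null pool correlated best with the wild-type pool of its number. The pairing was read from these same values, and the labels name no pairs. The blocked value is given where it changes the call of a member.

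The members, lists and named genes were chosen with earlier results of these data known. Named with every pool's value are Arid3b, the member with the smallest p of each role, the Id genes and called other genes. Bmp4, Bmp7, Fst, Nodal and the second Smurf1 probe were added after their values were seen, since they show blocked calls, spread or slide differences. Alternatives were scaling, background correction, filter, probe choice, the value table, slide and replicate blocks, each pool left out and each slide alone. The steps were tested on simulated data.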

Additional observations from a re-analysis of the deposited data

Results flagged for a closer look

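Of 77 groups of 4 pools looked at, 7 held a pool that stood far from the other 3. Chance gives this in about 1 in 20 groups. Null pool 4 had the highest Arid3b signal, at 2.48, where the other null pools lay at 1.83 to 1.89. Nog stood low in null pool 1, at -2.67, where the others lay at -2.52 to -2.50, and high in wild-type pool 4, at -2.14, where the others lay at -2.96 to -2.87. Bambi stood high in pool 2 of both genotypes, at 3.44 in null pool 2, where the other null pools lay at 2.93 to 3.01, and at 3.23 in wild-type pool 2, where the others lay at 2.87 to 2.91. Acvr1 stood low in null pool 2, at 0.18, where the others lay at 0.41 to 0.42. Smad2 stood high in null pool 4, at 0.99, where the others lay at 0.54 to 0.59.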

How the results depend on the processing

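The number of all genes called was 718, and it was 204 with each array's median subtracted, 157 with no shift, 164 without the filter on dim probes, 462 with the deposited value table, 1370 with slide as a block, 2343 with the replicate number as a block and 93 to 626 without 1 pool. Limma called 0 genes under normexp (740 at an unadjusted p under 0.05), on slide 1 alone (1880) and on slide 2 alone (2879). Under normexp Arid3b itself differed by -1.34 (limma adjusted p = 0.216), so a call lost there does not set a gene apart. The 10th percentile of the log2 normexp values was 9.12 in null pool 4 and 9.88 in wild-type pool 4. In the other pools it was 6.11 to 7.28. Members called higher were 0 on all pools, 1 (Grem1) with probes well above background on all 8 arrays, 2 with slide as a block, 4 with the replicate number as a block and 0 to 2 without 1 pool, the 2 being Ctgf and Grem1 without null pool 4. Members called lower were 0 in every fit run. Other pathway genes called were 2 on all pools, 0 with the median, with no shift, under normexp, without the filter and on either slide alone, 1 with quantile normalization or the value table, 4 with the stricter filter or slide as a block, 8 with the replicate number as a block (1 of them Mstn, kept through the wild-type pools alone) and 0 to 2 without 1 pool. The members' median of 0.08 was -0.0092 with the median subtracted, 0.011 with no shift, 0.034 under normexp and 0.06 to 0.10 without 1 pool. The median of all genes moved too, at -0.01 on all pools, -0.10, -0.08 and -0.07 under the first 3 of these, so that the members lay above it by 0.09 to 0.10 in each. Without the filter on dim probes the members' median was 0.0025 above that of all genes. Signs turned for Smurf2 (-0.011) and Smurf1 (-0.0079) with the median subtracted, for Id3 with quantile normalization (0.0043), under normexp (0.015) and on slide 2 alone (0.032), and for Tgfb1 under normexp (-0.023). The cause was not tested. The other named values kept their sign in every alternative run, with 47 calls lost and 14 gained. The call of the second Smurf1 probe was lost under the other scalings, normexp, no filter and the value table, an alternative chosen after seeing the data. The replicate block ended no call of a named gene. With 4 pools per group the 95% interval of Inhbb, a dim member, reached past 1 on the log2 scale, and that of no other measured member did.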
